A study of Mus musculus with 3 samples.

Results

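The 34 genes described here are leukocyte and myeloid genes: transcription factors, receptors, granule enzymes, surface antigens and signalling proteins that mark white blood cells. They were taken by name from a list chosen with earlier results of these data known. All 34 were among the 23397 genes given in the files. RNA was sequenced from endothelial cells of mouse embryoid bodies, the floating aggregates in which embryonic stem cells differentiate, at day 4.75 of culture. Cells were sorted as Tie2+, CD31+ and CD41-, so that cells already carrying the early blood antigen CD41 were left out by their surface protein. The groups were SclKO, from stem cells lacking Scl (current symbol Tal1, a factor required for all blood formation), a Gata1 and Gata2 double knockout labelled Gata12KO, and wild type (WT), with 1 library each. All 3 share the culture medium, the sort and the day, and the labels give no clone number and no count of cultures behind a library.

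Macrophages, granulocytes and their progenitors descend in the embryo from endothelium that turns hemogenic, and this endothelium switches on blood genes before the cells round up and leave. Genes of white cells include receptors, adaptors and cytoskeletal regulators shared by many of these cells. Others encode granule enzymes and growth factor receptors of single lineages, and CD45 (Ptprc) is commonly used as the mark of a committed blood cell. Some of the genes here, Cd34 and Arhgdib among them, are also known from endothelium.

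Levels are FPKM, a count of fragments scaled by transcript length and by library size, summed over the RefSeq transcript entries of a gene, with the lower and upper bounds that the authors deposited. The bounds cover counting error, are wider where the bounds of several entries were added, and cover no spread between cultures. A gene was counted as expressed at an FPKM of at least 1 in any library. It was called higher or lower when log2((FPKM + 1)/(FPKM + 1)) was at least 1 in size, which is 2-fold on that scale, and the bounds of both libraries did not overlap. With 1 library per group there is no replicate check and no test, so "higher" and "lower" describe these libraries only. In bulk RNA, fewer cells of a type and less RNA per cell cannot be told apart.

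Depth, as implied by the bounds, was about 28300000 fragments in SclKO, 50300000 in the library labelled Gata12KO and 31600000 in WT. Tal1, the gene removed in SclKO, had 1.59 FPKM in SclKO, 38.7 in the library labelled Gata12KO and 51.0 in WT. Gata1 was at 5.66 FPKM in the library labelled Gata12KO and 4.64 in WT, and Gata2 was at 44.9 FPKM in the library labelled Gata12KO and 12.05 in WT, so neither gene was low where its knockout is named. A level over the whole transcript would not show a missing exon. Itga2b, which encodes CD41, had 0.333 FPKM in SclKO, 17.6 in the library labelled Gata12KO and 22.8 in WT, so RNA of the antigen that was sorted against was present, mostly in the library labelled Gata12KO and WT. All 13 endothelial markers on a chosen list, from Cdh5 to Sox17, reached FPKM 1 in each library. They summed to 492 FPKM in SclKO, 967 in the library labelled Gata12KO and 1004 in WT.

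Promoter windows of 3 genes named in the results below are shown first. No level or ratio depends on these sequences. Lcp1, which encodes the actin bundler L-plastin, has 2 starts whose entries differed from WT in opposite directions in the deposited levels. Mpo and Lcp2 were among the genes with the lowest ratios of SclKO to WT. The windows come from RefSeq on GRCm38.p6, a later build than that of the expression files, and run from 250 bases before to 50 bases after a start, all on the forward strand. The upstream Lcp1 window lies at chr14:75130873-75131172, the downstream one at chr14:75136175-75136474, Mpo at chr11:87793534-87793833 and Lcp2 at chr11:34046678-34046977. Capitals mark any match, on either strand, to 5 short motifs. These are AGATAA, bound by Gata factors, CAGCTG, an E-box, GAGGAA, of the type bound by the ETS factor PU.1, TGTGGT, bound by Runx factors, and TTGCNNAA, bound by C/EBP factors.
Lcp1 upstream: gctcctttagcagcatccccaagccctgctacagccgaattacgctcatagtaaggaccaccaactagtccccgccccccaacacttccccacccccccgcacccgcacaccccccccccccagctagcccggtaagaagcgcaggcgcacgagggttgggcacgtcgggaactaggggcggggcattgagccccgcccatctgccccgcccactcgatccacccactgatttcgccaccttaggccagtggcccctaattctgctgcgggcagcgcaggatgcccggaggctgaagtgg
Lcp1 downstream: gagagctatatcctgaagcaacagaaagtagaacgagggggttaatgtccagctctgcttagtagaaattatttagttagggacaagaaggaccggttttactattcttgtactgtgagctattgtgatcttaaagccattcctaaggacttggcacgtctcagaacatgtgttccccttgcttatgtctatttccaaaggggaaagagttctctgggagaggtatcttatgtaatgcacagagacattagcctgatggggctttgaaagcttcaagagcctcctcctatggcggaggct
Mpo: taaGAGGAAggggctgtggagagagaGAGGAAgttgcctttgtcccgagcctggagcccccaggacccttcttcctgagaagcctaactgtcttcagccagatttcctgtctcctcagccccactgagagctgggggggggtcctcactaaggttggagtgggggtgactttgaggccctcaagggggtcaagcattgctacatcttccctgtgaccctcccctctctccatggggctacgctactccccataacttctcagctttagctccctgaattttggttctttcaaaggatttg
Lcp2: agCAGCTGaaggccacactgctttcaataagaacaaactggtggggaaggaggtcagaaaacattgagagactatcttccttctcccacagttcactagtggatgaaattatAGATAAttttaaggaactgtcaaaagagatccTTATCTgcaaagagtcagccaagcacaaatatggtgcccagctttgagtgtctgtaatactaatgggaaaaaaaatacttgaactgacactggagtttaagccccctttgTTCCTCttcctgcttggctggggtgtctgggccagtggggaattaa

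Neither Lcp1 window held any of the 5 motifs. They differed in composition, with 66.3% G and C and 19 CpG dinucleotides upstream, against 44.3% and 4 downstream, and medians of 52.7% and 7 over all windows. The Mpo window held GAGGAA 2 times, and the Lcp2 window held AGATAA 2 times, CAGCTG 1 time and GAGGAA 1 time. Windows were given for 27 of the 34 genes. GAGGAA occurred in 17 of these 27 genes (63%), against 31.3% of all 27025 genes with a window, counting a gene once if any of its windows matched. CAGCTG occurred in 9 of 27 (33.3%, against 18.3%), TGTGGT in 8 (29.6%, against 18.9%), AGATAA in 3 (11.1%, against 12.7%) and TTGCNNAA in 2 (7.41%, against 12.2%). These counts describe letters in a window and nothing more.

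Of the 34 genes, 5 reached FPKM 1 in SclKO, 9 in the library labelled Gata12KO and 13 in WT. Among all genes the shares at that level were nearly even, at 44.4% in SclKO, 44.3% in the library labelled Gata12KO and 45.2% in WT. The 13 in WT were Arhgdib, Alox5ap, Cd34, Mpo, Laptm5, Tyrobp, Lcp2, Lcp1, Inpp5d, Il2rg, Lyz2, Was and Vav1. No gene reached FPKM 1 elsewhere that did not do so in WT. Vav1, at 1.05 FPKM in WT, was the member just inside this limit, and Rac2, at 0.911 in WT, the one just outside. The 34 levels summed to 50.4 FPKM in SclKO, 49.2 in the library labelled Gata12KO and 126 in WT, and without Arhgdib to 17.2, 35.1 and 82.0 FPKM in the same order.

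**Figure D1:**
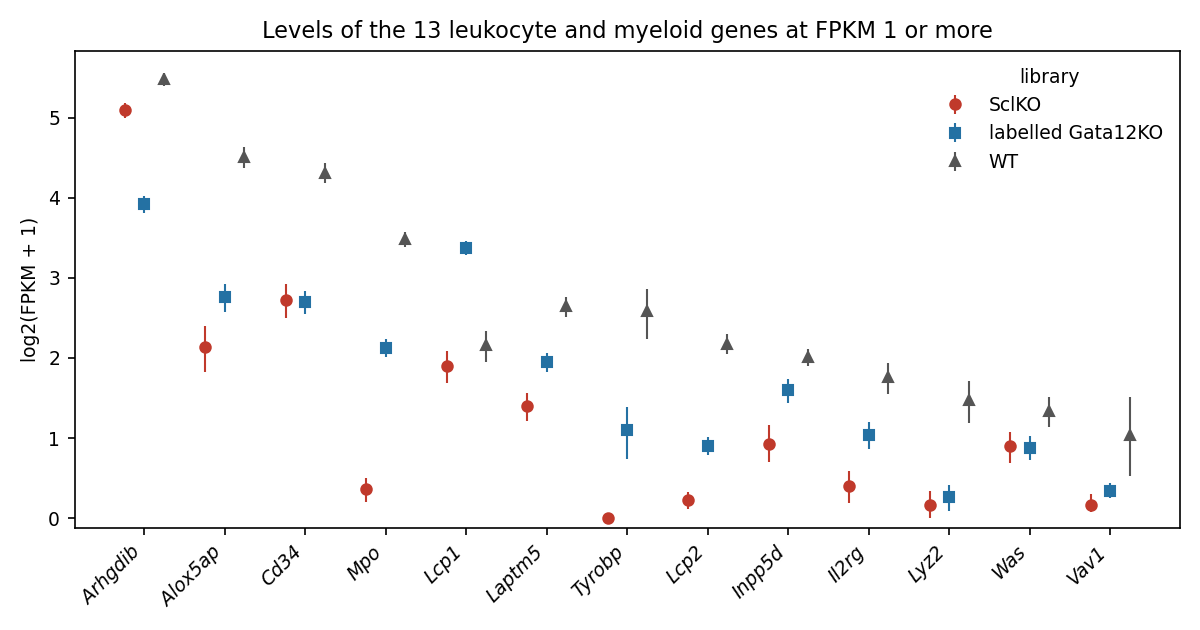
Level of each of the 13 expressed genes as log2(FPKM + 1) in SclKO (circles), the library labelled Gata12KO (squares) and WT (triangles), with bars at the deposited bounds. WT is highest for every gene except Lcp1, and Tyrobp is listed at 0 in SclKO.

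In SclKO against WT, 9 of the 13 expressed genes were called lower, none higher, and 4 lay between. The background was 4.24% lower and 2.12% higher among 11080 expressed genes. All 13 ratios were below 0, although that of Lcp1 was 0.02 when only the highest entry per gene was used, and for 12 of 13 the bounds lay wholly below those of WT, which held for 31.6% of expressed genes (26.3% lay above). The median log2 ratio was -1.31 over the 13, beside -0.03 over all expressed genes. It was -0.26 over all 34, beside 0.0 over all genes, expressed or not. As the 13 were expressed through WT, a count over them leans towards lower calls by construction.

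In the library labelled Gata12KO against WT, 7 of the 13 were called lower, 1 higher and 5 lay between, with a background of 3.75% lower and 0.767% higher. Bounds lay wholly below those of WT for 12 of 13 and above for 1, Lcp1, against 37.6% below and 24.2% above among all expressed genes. The median log2 ratio was -1.21 over the 13, beside -0.08 over all expressed genes. It was -0.25 over all 34, beside 0.0 over all genes, expressed or not. This comparison and the one before share the WT library.

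Set against SclKO, the library labelled Gata12KO held 3 genes called higher, Mpo, Tyrobp and Lcp1 (log2 ratios of 1.76, 1.10 and 1.47), and 1 called lower, Arhgdib (-1.18). The background was 3.38% higher and 3.75% lower. Bounds lay above those of SclKO for 8 of 13 and below for 1, against 24.8% above and 33.5% below among all expressed genes. The median log2 ratio was 0.63 over the 13 and -0.06 over all expressed genes. When each library was rescaled to the same sum over all entries, 8 of the 13 were called higher and 0 lower, and the median of all expressed genes moved up by 0.72 on the log2 scale.

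**Figure D2:**
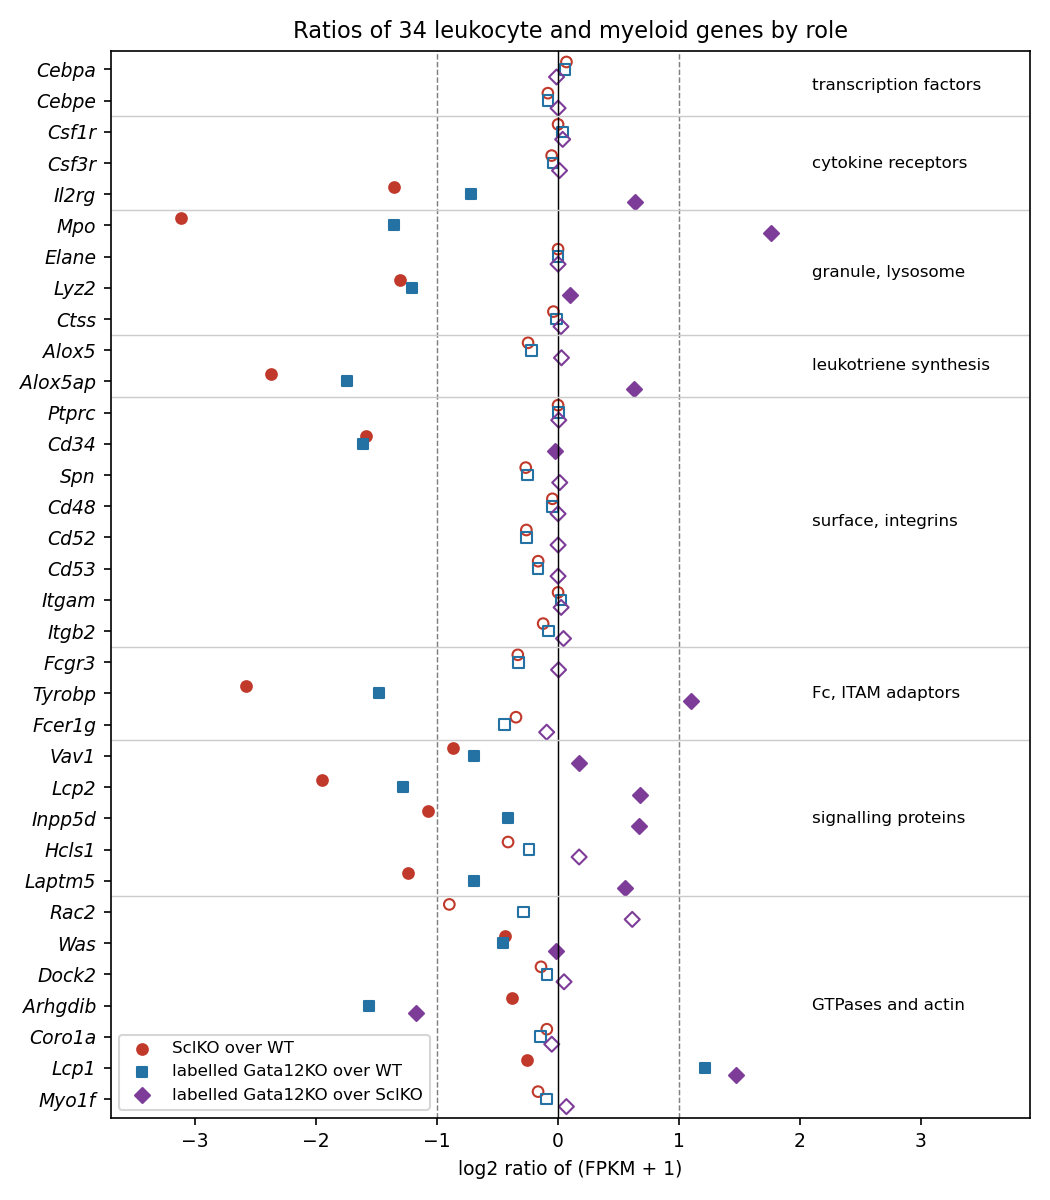
Log2 ratio of FPKM + 1 for the 34 genes, grouped by role, for SclKO over WT (circles), the library labelled Gata12KO over WT (squares) and the library labelled Gata12KO over SclKO (diamonds). Filled symbols are the 13 expressed genes, open ones the other 21, and dashed lines stand at 2-fold, with Mpo farthest left at -3.12.

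The transcription factors among the 34 were near the bottom of the scale in all libraries. Cebpa, which drives granulocyte and monocyte progenitors, had 0.130 FPKM in SclKO, 0.120 in the library labelled Gata12KO and 0.0773 in WT, with overlapping bounds. Cebpe, a factor of late granulocyte maturation, was listed at 0 in SclKO and in the library labelled Gata12KO and had 0.0601 FPKM in WT, about 2 fragments. Neither factor was expressed by the limit of FPKM 1, and neither differed beyond counting error.

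Among receptors, the common cytokine receptor chain Il2rg (chromosome X, 98459726 to 98463545 on mm9, reverse strand, 8 exons) reached the limit and the receptors of single myeloid lineages did not. Il2rg had 0.322 FPKM in SclKO (bounds 0.142 to 0.501), 1.06 in the library labelled Gata12KO (0.815 to 1.30) and 2.39 in WT (1.93 to 2.85). The 3 ranges did not overlap, and the gene was called lower in SclKO (log2 ratio -1.36) but lay between in the library labelled Gata12KO (-0.72). Csf1r, the macrophage growth factor receptor, was listed at 0 in SclKO and WT and had 0.0268 FPKM, about 5 fragments, in the library labelled Gata12KO. The granulocyte receptor Csf3r had 0.0131 FPKM in SclKO, 0.0216 in the library labelled Gata12KO and 0.0512 in WT, with overlapping bounds.

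Of the 3 Fc receptor and adaptor genes, 1, Tyrobp, was expressed. Tyrobp encodes DAP12, an adaptor that signals for many myeloid receptors (chromosome 7, 31198807 to 31202598, forward strand, 5 exons). It was listed at 0 in SclKO, where 3 fragments would make 0.289 FPKM, and had 1.15 FPKM in the library labelled Gata12KO (0.669 to 1.63) and 4.99 in WT (3.70 to 6.28). WT stood above both others and the 3 ranges were separate. The WT value rests on about 60 fragments, as the transcript is only 566 nt long. Fcer1g, the gamma chain of Fc receptors, had 0.154, 0.0810 and 0.469 FPKM in SclKO, the library labelled Gata12KO and WT, on 2 to 7 fragments, and its bounds overlapped. Fcgr3, the low affinity IgG receptor, had 0.0306 and 0.0335 FPKM in SclKO and the library labelled Gata12KO and 0.298 in WT, about 11 fragments, with separate bounds. Its reads could be shared with other Fc gamma receptor genes.

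Signalling proteins of white cells made up the largest expressed set, with 4 of 5 at FPKM 1 in WT. Lcp2, the adaptor known as SLP-76 (chromosome 11, 33947201 to 33992280, forward strand, 21 exons), had 0.168 FPKM in SclKO (0.0814 to 0.255), 0.868 in the library labelled Gata12KO (0.721 to 1.02) and 3.53 in WT (3.16 to 3.91). That was 21.0-fold less than WT in SclKO and 4.07-fold less in the library labelled Gata12KO, on about 15, 139 and 353 fragments. Laptm5, a lysosomal membrane protein of blood cells that lowers antigen receptor levels, had 1.64 FPKM in SclKO (1.31 to 1.96), 2.86 in the library labelled Gata12KO (2.54 to 3.18) and 5.25 in WT (4.70 to 5.80). Its ranges were again separate, and only in SclKO was the limit of 2-fold passed, with a log2 ratio of -1.24 against -0.69. The difference between those ratios was not tested, as there are no replicates.

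Inpp5d encodes SHIP1, an inositol phosphatase that restrains growth factor signalling. Summed over its 3 entries it had 0.908 FPKM in SclKO (0.620 to 1.25), 2.03 in the library labelled Gata12KO (1.71 to 2.35) and 3.03 in WT (2.74 to 3.34), in the same order as Lcp2 and Laptm5. With libraries scaled to equal sums over all entries, its log2 ratio in the library labelled Gata12KO against WT was 0.09 in place of -0.41. Each library gave most of that sum to another entry. NM_001110192 held 86.3% in SclKO, NM_010566 held 64.4% in the library labelled Gata12KO and NM_001110193 held essentially 100.0% in WT, so single entries of this gene were not compared. Vav1, an exchange factor that activates Rac, had 0.124, 0.266 and 1.05 FPKM in SclKO, the library labelled Gata12KO and WT. Its WT bounds were wide (0.439 to 1.85), as the bounds of its 3 entries were added. The log2 ratios of -0.87 and -0.70 against WT lay between. With a pseudocount of 0.1 in place of 1 they were -2.36 and -1.66, and both were then called lower. Hcls1, a cortactin relative of blood cells, stayed under the limit with 0.153, 0.301 and 0.535 FPKM.

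**Figure D3:**
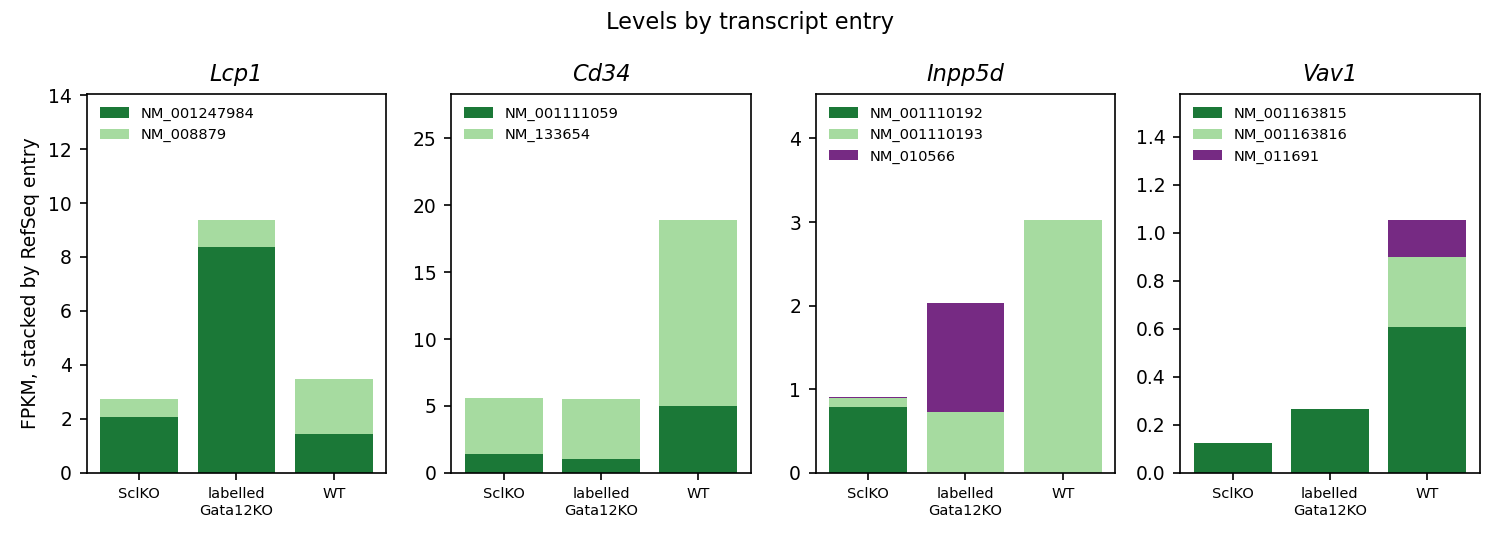
FPKM of Lcp1, Cd34, Inpp5d and Vav1 in SclKO, the library labelled Gata12KO and WT, with bars from 0 stacked by RefSeq entry. The Lcp1 bar is tallest in the library labelled Gata12KO, where NM_001247984 holds 89.3% of it, and the Inpp5d bars are made of different entries in each library.

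Regulators of the actin cytoskeleton and of small GTPases did not move together. Arhgdib, an inhibitor that keeps small GTPases inactive in the cytosol (chromosome 6, 136872230 to 136890238, reverse strand, 6 exons), was the most abundant of the 34 genes. Its level was 33.2 FPKM in SclKO (30.9 to 35.5), 14.1 in the library labelled Gata12KO (13.02 to 15.2) and 43.6 in WT (41.2 to 46.1). It was the only one of the 13 called lower in the library labelled Gata12KO against SclKO (log2 ratio -1.18), while SclKO lay between against WT (-0.38). That call ended when the length trend was removed (-0.97) and when libraries were scaled to equal sums over all entries (-0.40).

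Lcp1 (chromosome 14, 75530930 to 75630649, forward strand) went the other way, with 2.74 FPKM in SclKO (2.22 to 3.26), 9.37 in the library labelled Gata12KO (8.74 to 10.0) and 3.47 in WT (2.88 to 4.06). The library labelled Gata12KO stood above both others, by log2 ratios of 1.22 against WT and 1.47 against SclKO, and SclKO and WT overlapped. The gene has a pair of entries whose starts lie 5302 bases apart on mm9 and which share 15 exons with identical ends. The entry with the upstream start, NM_001247984, had 2.06 FPKM in SclKO (1.76 to 2.37), 8.37 in the library labelled Gata12KO (7.94 to 8.81) and 1.44 in WT (1.17 to 1.71). The entry with the downstream start, NM_008879, had 0.678 FPKM in SclKO (0.464 to 0.892), 1.00 in the library labelled Gata12KO (0.799 to 1.20) and 2.02 in WT (1.71 to 2.34). In the deposited levels, the upstream entry was thus above WT and the downstream entry below it in both other libraries, with separate bounds. For the upstream entry in SclKO the gap was narrow (1.76 against 1.71). Log2 ratios against WT were 0.33 (SclKO) and 1.94 (library labelled Gata12KO) for the upstream entry, and -0.85 and -0.60 for the downstream entry. Only 1.94 passed the 2-fold limit. Scaling to equal sums over all entries multiplies levels by 1.035 in SclKO, 1.827 in the library labelled Gata12KO and 1.128 in WT. With these factors, the bounds of the upstream entry in SclKO and of the downstream entry in the library labelled Gata12KO overlap those of WT. The upstream entry in the library labelled Gata12KO and the downstream entry in SclKO stay separate from WT. The upstream entry held 75.3% of the gene's level in SclKO, 89.3% in the library labelled Gata12KO and 41.6% in WT. The split rests on the few reads that tell the entries apart, as most exons are shared.

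Of the other genes in this group, Was, an activator of actin nucleation whose loss causes Wiskott-Aldrich syndrome in humans, had 0.861 FPKM in SclKO (0.608 to 1.11), 0.842 in the library labelled Gata12KO (0.656 to 1.03) and 1.53 in WT (1.21 to 1.84). WT was above both, which overlapped each other, and neither log2 ratio (-0.44 and -0.46) passed the limit. Rac2, the Rac GTPase of blood cells, had 0.0249 FPKM in SclKO, about 2 fragments, 0.568 in the library labelled Gata12KO and 0.911 in WT, about 82 fragments in each of these. The 3 ranges were separate, although the gene did not reach FPKM 1. Dock2, which activates Rac in lymphocytes, Myo1f, an unconventional myosin, and Coro1a, an actin binding coronin, were at or under 0.336 FPKM in all 3 libraries.

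The granule enzyme Mpo, myeloperoxidase (chromosome 11, 87607286 to 87617914, forward strand, 14 exons), had a log2 ratio of -3.12 in SclKO against WT, the lowest of the 34 with a pseudocount of 1. With a pseudocount of 0.1, Tyrobp was lower (-5.67, and -4.73 for Mpo). It had 0.286 FPKM in SclKO (0.155 to 0.417), 3.37 in the library labelled Gata12KO (3.03 to 3.70) and 10.2 in WT (9.42 to 10.9), on about 19, 403 and 758 fragments. SclKO was 35.5-fold and the library labelled Gata12KO 3.02-fold below WT. The other neutrophil enzyme on the list, Elane, was listed at 0 in all 3 libraries. Lyz2, the lysozyme of macrophages and neutrophils, had 0.124 FPKM in SclKO (bounds 0 to 0.266), 0.201 in the library labelled Gata12KO (0.0670 to 0.335) and 1.78 in WT (1.27 to 2.29). WT was above both others, which overlapped, and the near-identical Lyz1 makes the split of reads uncertain. Ctss, cathepsin S, had at most 0.0270 FPKM, 1 fragment. A further list of 21 measured neutrophil and mast cell granule genes had 2 expressed, Mmp9 and Srgn, of which Mmp9 was higher in SclKO (5.36 FPKM, 0.568 in the library labelled Gata12KO and 0.503 in WT), and 13 to 15 genes listed at 0.

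Leukotriene synthesis was represented by its activating protein rather than by its lipoxygenase. Alox5ap, which presents arachidonic acid to the lipoxygenase (chromosome 5, 150076634 to 150099623, forward strand, 5 exons), had 3.40 FPKM in SclKO (2.54 to 4.26), 5.79 in the library labelled Gata12KO (4.97 to 6.61) and 21.8 in WT (19.7 to 23.8). All ranges were separate, and SclKO held 6.40-fold and the library labelled Gata12KO 3.76-fold less than WT. Alox5 itself had 0.135, 0.157 and 0.347 FPKM in SclKO, the library labelled Gata12KO and WT, with overlapping bounds. Of 15 further leukotriene and prostaglandin genes 5 were expressed, with 2 lower and 1 higher in SclKO and 1 lower in the library labelled Gata12KO, each against WT. Ltc4s, which makes leukotriene C4, had 0.182 FPKM in SclKO and 16.3 in the library labelled Gata12KO, against 15.4 in WT, so the library labelled Gata12KO was not below WT for this gene. Ptgis, prostacyclin synthase, was the higher one in SclKO (10.4 FPKM, 3.95 in the library labelled Gata12KO and 2.51 in WT).

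Of the 8 surface antigens and integrins, Cd34 was expressed and the others were not. Cd34, a sialomucin of blood progenitors and endothelium (chromosome 1, 196765015 to 196787486, forward strand, 8 exons), had 5.61 FPKM in SclKO (4.67 to 6.56), 5.50 in the library labelled Gata12KO (4.83 to 6.17) and 18.9 in WT (17.3 to 20.6). SclKO and the library labelled Gata12KO overlapped, and both were over 3-fold below WT (3.37-fold in SclKO, 3.44-fold in the library labelled Gata12KO). NM_133654 held most of the level in each library, with 75.6% in SclKO, 81.3% in the library labelled Gata12KO and 73.7% in WT. An antisense gene with overlapping exons, Gm16897, had at most 0.594 FPKM. Ptprc, which encodes CD45, was listed at 0 in SclKO and WT and at 0.00396 FPKM, 1 fragment, in the library labelled Gata12KO. At these depths 3 fragments would make 0.0198 FPKM of Ptprc in SclKO and 0.0176 in WT. A listed 0 allows a level up to that.

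Spn (CD43, a sialomucin of white cells) had 0.0677, 0.0779 and 0.285 FPKM in SclKO, the library labelled Gata12KO and WT, and WT was above both with separate bounds. The tetraspanin Cd53 was listed at 0 in SclKO and the library labelled Gata12KO and had 0.121 FPKM in WT, about 10 fragments. Cd48, an immunoglobulin family receptor of blood cells, and Cd52, a short lipid-anchored glycoprotein, were also found in WT alone, on 1 and 2 fragments. The leukocyte integrin genes were close to nothing, with Itgb2, the shared beta chain, at 0.0265, 0.0590 and 0.118 FPKM in SclKO, the library labelled Gata12KO and WT. Itgam, the alpha chain of CD11b, was listed at 0 in SclKO and WT and had 0.0176 FPKM in the library labelled Gata12KO.

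The 21 genes under FPKM 1 summed to 1.02 FPKM in SclKO, 1.81 in the library labelled Gata12KO and 4.13 in WT. Of these, 10 were listed at 0 in SclKO, 5 in the library labelled Gata12KO and 4 in WT, which was sequenced less deeply than the library labelled Gata12KO. Leaving out Elane, 20 of these genes were above 0 in some library, as were 7040 of all genes under FPKM 1. Bounds were separate from WT on the lower side for 7 of the 20 in SclKO (Rac2, Hcls1, Fcgr3, Spn, Dock2, Myo1f and Cd53), against 7.71% of the 7040. In the library labelled Gata12KO they were so for 4 of the 20 (Rac2, Fcgr3, Spn and Cd53), against 7.13%. On the higher side they were separate for 0 of the 20 in SclKO (4.84% of the 7040) and for 1, Csf1r, in the library labelled Gata12KO (6.78%). WT had the highest level for 16 of the 20, against 35.1% of the 7040. It had the highest level for 12 of the 13 expressed genes, all of which had passed the limit in WT, against 41.9% of the 10576 genes at FPKM 1 or more in WT. The members listed at 0 carry bounds of 0, so separation from them asks little.

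Genes that work with these 34 were read from lists chosen with earlier results of these data known. Counts over these lists are therefore not independent of the data. Of 24 other leukocyte and myeloid transcription factors 18 were expressed, with 10 lower and 0 higher in SclKO and 4 lower and 0 higher in the library labelled Gata12KO, each against WT. Spi1, which encodes PU.1, had 0.0312 FPKM in SclKO, 0.954 in the library labelled Gata12KO and 6.58 in WT. The others with the largest ratios in SclKO were Lyl1, Nfe2 and Myb (log2 ratios of -3.25, -2.98 and -2.77), and in the library labelled Gata12KO Myb, Nfe2 and Runx1 (-1.92, -1.70 and -1.59). In that library Lyl1 lay between, at -0.26.

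Of 36 other signalling and actin genes of blood cells 16 were expressed, with 8 lower and 0 higher in SclKO and 3 lower and 0 higher in the library labelled Gata12KO, each against WT. The 3 lower in the library labelled Gata12KO, Plcg2, Gmfg and Plek, were also lower in SclKO, and both comparisons share the WT library. Plcg2, a phospholipase of immune receptor signalling, had 1.17 FPKM in SclKO, 4.34 in the library labelled Gata12KO and 14.9 in WT. Gmfg, an actin branch regulator, had 8.73, 22.05 and 48.3 FPKM in the same order, and Plek, a substrate of protein kinase C, 0.0451, 0.267 and 3.14. Fermt3, which activates integrins in blood cells, had 0.319 FPKM in SclKO and 4.15 in the library labelled Gata12KO against 5.51 in WT. It was called lower in SclKO only, and the difference between the ratios was not tested.

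Myeloid ligands and their other receptors held 12 expressed genes of 23, with 2 lower in SclKO, Flt3l (1.45 FPKM, 9.63 in WT) and Csf2rb (0.0132 FPKM, 1.46 in WT), and 0 called in the library labelled Gata12KO against WT. The median log2 ratio of this list was 0.30 in SclKO and -0.16 in the library labelled Gata12KO, each against WT. Kitl (6.75 FPKM in SclKO, 3.02 in WT) and Il6st (32.6 and 16.6) were above WT in SclKO. Their bounds were separate and their log2 ratios (0.95 and 0.93) just under the limit. Of 26 family relatives of the 34, chosen as genes also used outside blood, 24 were expressed. The list shares Coro1b and Blnk, a B cell adaptor, with the signalling list above. Of the 24, 2 were lower in SclKO (Vav3 and Laptm4b), 1 in the library labelled Gata12KO (Cd63) and none higher, with medians of 0.01 and -0.10 against WT. Vav3 had 7.70 FPKM in SclKO and 19.6 in the library labelled Gata12KO against 17.1 in WT, and Rac1 81.3 and 88.8 against 92.8. Among 18 expressed integrin and adhesion genes of 25, 6 were lower in SclKO and 0 in the library labelled Gata12KO, the lowest in SclKO being Itga2b, Esam, Cd93 and Icam2.

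**Figure D4:**
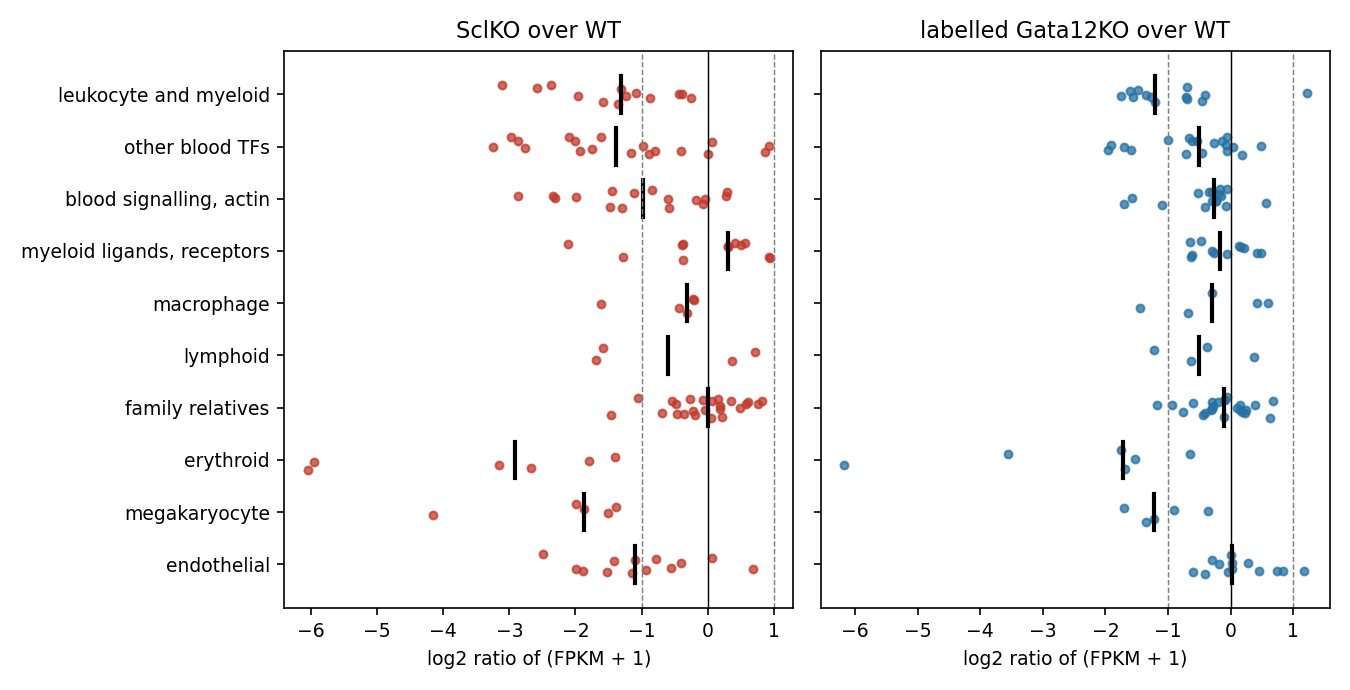
Log2 ratio of FPKM + 1 for the expressed genes among the 34 and in the further lists, in SclKO over WT (left) and the library labelled Gata12KO over WT (right). Each point is a gene, with a black bar at the list's median and dashed lines at 2-fold. The 13 leukocyte and myeloid genes have medians of -1.31 and -1.21, and the family relatives 0.01 and -0.10. All 13 passed FPKM 1 in WT, so their medians lean towards lower values by construction.

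Erythroid, megakaryocyte and platelet markers also had lower sums in both other libraries than in WT. Erythroid markers summed to 1.69 FPKM in SclKO, 11.5 in the library labelled Gata12KO and 170 in WT, with 6 of 10 expressed. All 6 were lower than WT in SclKO and 5 in the library labelled Gata12KO. Megakaryocyte and platelet markers summed to 2.02, 21.7 and 36.7 FPKM in the same order, most of it Itga2b in the library labelled Gata12KO and WT, with 5 of 12 expressed, 5 of them lower in SclKO and 3 in the library labelled Gata12KO. Endothelial markers were lower for 7 of 13 in SclKO, and 0 were lower and 1 higher in the library labelled Gata12KO. Of 29 measured macrophage and phagocyte genes 5 were expressed and 12 to 13 were listed at 0. The mannose receptor Mrc1, also found on endothelium, had 1.40 FPKM in SclKO, 10.0 in the library labelled Gata12KO and 6.32 in WT, and was the 1 called lower in SclKO. Cyba, a subunit of the phagocyte oxidase, was the 1 called lower in the library labelled Gata12KO, with 77.1, 32.4 and 90.2 FPKM in SclKO, the library labelled Gata12KO and WT. Lymphoid genes had 4 of 21 expressed, with Cd79b (0.142, 0.463 and 2.41 FPKM in SclKO, the library labelled Gata12KO and WT) lower in both. Ebf1, a B cell factor, was lower in SclKO but not in the library labelled Gata12KO, with 0.985, 7.23 and 5.38 FPKM in the same order. The other expressed lymphoid genes, Tcf7 and Thy1, were above WT in SclKO with separate bounds. Their log2 ratios of 0.37 and 0.72 stayed under the limit. In the library labelled Gata12KO they were below WT, at -0.63 and -0.38, and were not called either. Cardiac and mesenchymal markers, 10 of 12 expressed, summed to 127 FPKM in SclKO, 36.6 in the library labelled Gata12KO and 83.3 in WT. The part of other cell types in the levels of the 34 genes was not tested.

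Transcript length moved with the ratios. In the shortest of 5 length classes (312 to 1566 nt) the log2 ratios of expressed genes centred on -0.24 in SclKO and -0.46 in the library labelled Gata12KO against WT, and in the longest (4648 to 23495 nt) on 0.09 and 0.12. Tyrobp, Alox5ap, Lyz2 and Arhgdib fell in the shortest class. Once the length trend was removed the 9 lower calls in SclKO all held, and 5 of 7 held in the library labelled Gata12KO, where Tyrobp (-1.48 without and -0.87 with that step) and Lyz2 (-1.21 and -0.74) went under the limit. When libraries were scaled to equal sums over all entries, Arhgdib, Lcp2 and Mpo went under it instead (-0.91, -0.95 and -0.80). Over all genes, that scaling turned 85 higher and 415 lower calls in the library labelled Gata12KO into 1333 and 117. With libraries scaled to equal sums over transcripts of 300 nt or longer, the 235 higher and 470 lower calls in SclKO became 553 and 547, and those in the library labelled Gata12KO became 468 and 301.

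**Figure D5:**
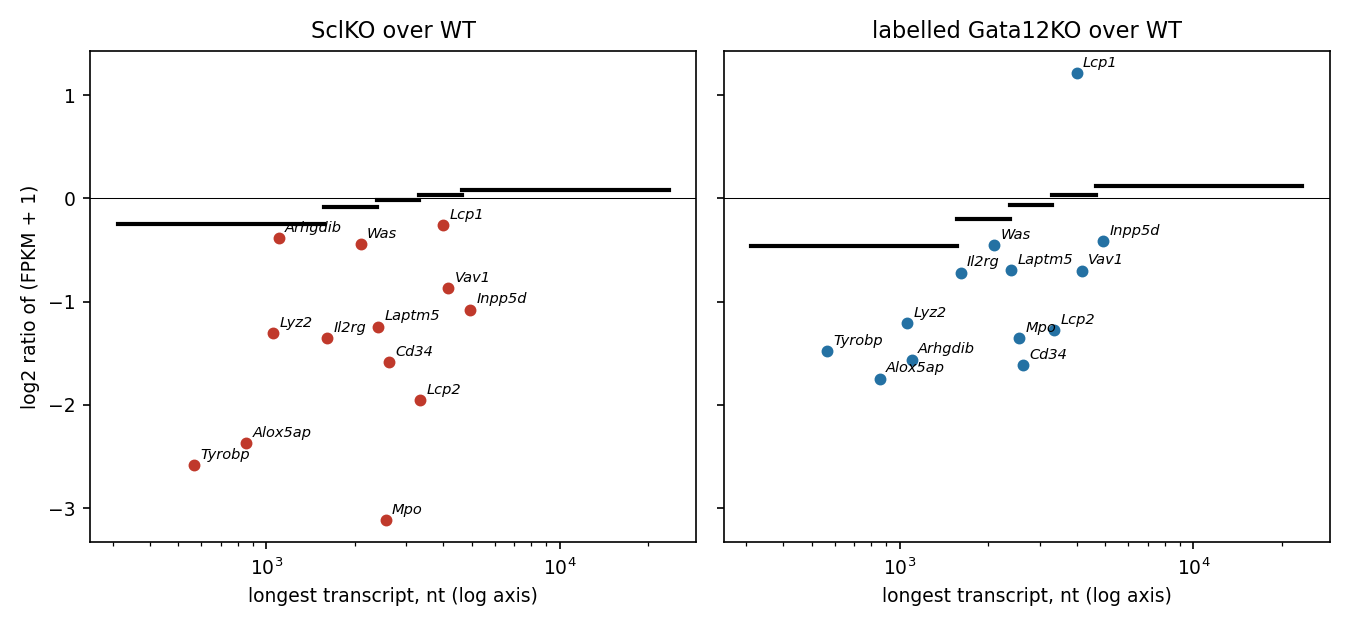
Log2 ratio of FPKM + 1 against the length of the longest transcript (log axis) for the 13 expressed genes, in SclKO over WT (left) and the library labelled Gata12KO over WT (right). Black lines give the median of all expressed genes in each of 5 length classes, which climbs from -0.46 to 0.12 on the right. Lcp1 is the gene above 0 on the right.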

How the data were processed

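All 3 libraries were read, 1 per genotype. The authors deposited a transcript file per library, written by Cufflinks per the file's source column, with 30123 RefSeq entries and for each its FPKM and confidence bounds. Per the submitters' processing notes, mm9 and hg19 were the builds, and Cuffdiff, Cufflinks 2.0.1 and TopHat2 2.0.4 the tools, without a role for each. Chromosome names and the mouse build named there put the files on mm9. No source used here states whether counting used strand. Reads were 50 nt, per the labels' protocols.

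Entries were joined by accession, 136 by exon structure, and 134 were left out because the symbols did not match or no partner was found. Symbols came from RefSeq's gene table (GRCm38.p6) and GENCODE. FPKM and bounds were summed per symbol. Fragments behind a level were computed from the bounds, which for genes with 1 entry lie 2 Poisson standard deviations out. These fitted 1 total and 1 length term per library within 1% for nearly all entries of at least 100 fragments. A level listed at 0 allows up to 3 fragments. Intervals cover counting error, are wider for genes of several entries, and cover no spread between cultures.

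No statistical test between libraries was made. The calling rule was run on simulated counts with Poisson error only. These had no length trend and no spread between cultures, so the run cannot show how reliable the calls made here are. Every member is accounted for, those at FPKM 1 with each library's value, and up to 4 of each further list are named by size. The members and lists were chosen with earlier results of these data known. Python 3.11.15 with pandas 2.3.3 was used. Pseudocount, low-value filter, fold limit, bounds, scaling, length and summing were varied.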

Additional observations from a re-analysis of the deposited data

How the results depend on the processing

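No paired analysis was possible because each group has 1 library, and none could be left out. Over 11 alternatives, 370 of 408 recomputed member ratios stayed on the same side of the limit, 20 fell under it and 18 passed it. The sign changed in 11, all of ratios not called (Lcp1, Inpp5d, Cd34 and Was), and in 0 called ones. Of 174 counts and medians, 51 moved, and except where the construction of an alternative gives it (fewer genes or a stricter limit), the cause was not tested. Counts below are higher and lower calls in that order, and medians are log2 ratios of the expressed members.

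For SclKO against WT, a pseudocount of 0.1 gave 475 and 744 genes and a median of -2.36, and a pseudocount of 0.5 a median of -1.67. Without the filter the median was -0.26. At FPKM 5, 4 members were lower. At 3-fold, 5 members were lower, with 43 and 192 genes. Scaling over transcripts of 300 nt or longer gave 553 genes higher and a median of -1.64, and 9 members then reached FPKM 1 in SclKO and 14 in the library labelled Gata12KO. That scaling multiplies levels by 3.752 in SclKO, 4.202 in the library labelled Gata12KO and 3.39 in WT. FPKM 1 is then easier to reach in every library, WT included, so these counts cannot be set beside the unscaled WT count.

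For the library labelled Gata12KO against WT, a pseudocount of 0.1 gave 229 and 714 genes and a median of -1.62, and one of 0.5 gave 138 genes higher and -1.46. Without the filter the median was -0.25. At FPKM 5, 4 members were lower, with a median of -1.46. At 3-fold, 0 and 2 members were called, with 16 and 79 genes. Scaling over transcripts of 300 nt or longer gave 468 genes higher. Scaling over all entries left 4 members lower, with 1333 and 117 genes and a median of -0.80. Removing the length trend gave 151 and 174 genes and -0.75.

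For the library labelled Gata12KO against SclKO, a pseudocount of 0.1 gave 6 members higher, 595 and 690 genes and a median of 0.77. Without the filter the median was 0.027. At 3-fold, 1 and 0 members were called, with 145 and 121 genes. Scaling over transcripts of 300 nt or longer gave 6 members and 687 genes higher and a median of 0.88. Scaling over all entries gave 8 and 0 members, 2133 and 120 genes and a median of 1.14. Removing the length trend left 0 members lower.

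Scaling over all entries moved the median of all expressed genes by -0.11, 0.60 and 0.72 in these 3 comparisons, and scaling over transcripts of 300 nt or longer by 0.13, 0.28 and 0.15. Members with few fragments, Ptprc, Csf1r and Itgam among them, are limited by depth.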
